A study of Capra hircus with 4 samples.

Results

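The angiopoietin and TIE receptor genes ANGPT1, ANGPT2, TEK and TIE1 were followed across cell classes of the goat ovary. They are 4 of the 28944 genes counted, were picked by name, and were picked with their pattern over the cell classes already known, so their levels by class are described without a test. The counts came from single nuclei of the left ovary of 4 goats of about 3 years of age, with 1 library per goat. The 2 Du'an goats were the monotocous group, with single births, and the 2 Nubian goats were the polytocous group, with multiple births. All 4 goats had received a vaginal progesterone device (300 mg) for 17 days and were sampled at estrus, and breed cannot be told apart from litter size. Below, the goats are called Du'an 1, Du'an 2, Nubian 1 and Nubian 2, and values over goats are given in that order.

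The libraries held 9364 to 16988 nuclei and 40573246 to 71613892 unique molecular identifiers (UMIs, each standing for 1 captured transcript). Of 48332 nuclei, 44700 were kept, and 35312 of those lay in endothelial, pericyte-like, smooth muscle-like or granulosa classes. Pairs of libraries shared 54 to 131 cell barcodes. The classes were rebuilt here by clustering and are called "-like" after fixed marker lists, so they may differ from the classes of the study. A level is the number of UMIs of a gene per 1000000 UMIs of the class in 1 goat (CPM), and a class was used in a goat with at least 20 nuclei. Levels are compared between classes and not between genes.

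Angiopoietins are secreted ligands of TEK, also known as TIE2, a receptor tyrosine kinase of endothelial cells. ANGPT1, made by the cells that wrap vessels, activates TEK and steadies the vessel wall, while ANGPT2 acts on the same receptor as an antagonist or weak agonist depending on context and is linked to vessel remodelling and to lymphatic growth. TIE1 is a related receptor that binds no angiopoietin with high affinity and modulates TEK. In the ovary, vessels grow and regress with every follicle and corpus luteum, and granulosa and theca cells are known sources of angiogenic ligands.

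The endothelial, pericyte-like and smooth muscle-like classes carried most of their defining markers. Marker sums of the theca-like nuclei are not given. The 8 blood endothelial markers, PECAM1, CDH5 and KDR among them, summed to 6832 to 7685 CPM per goat in the blood endothelial-like nuclei, and 8 of 8 reached 10 CPM. The 6 lymphatic markers, such as PROX1, FLT4 and RELN, summed to 7638 to 14676 CPM in the lymphatic endothelial-like nuclei and to 192 to 279 CPM in the blood endothelial-like nuclei. The pericyte-like nuclei, a single cluster of 316, had 5 of 7 pericyte markers at 10 CPM or more and a summed level of 704 to 999 CPM, against 17.5 to 36.9 CPM in blood endothelial-like nuclei. None of the pericyte markers was among the 10 leading genes of that cluster. EBF1 of the B cell list was, but CD79A, CD79B, MS4A1 and PAX5 of that list stayed under 1 CPM. The smooth muscle markers summed to 3536 to 6035 CPM in the pericyte-like nuclei. The name of that cluster is thus the least secure of the endothelial, pericyte-like and smooth muscle-like classes. In smooth muscle-like nuclei 8 of 8 smooth muscle markers reached 10 CPM, and they summed to 3820 to 5683 CPM. Stromal markers summed to 4589 to 5630 CPM there, against 2385 to 3856 CPM in blood endothelial-like nuclei, and fibroblast markers to 1996.5 to 3410.6 CPM. In pericyte-like nuclei the stromal markers summed to 2987.5 to 5914.5 CPM and the fibroblast markers to 645 to 1421 CPM. Whether the smooth muscle-like nuclei come from vessel walls was not tested. The granulosa classes were named through a subtype table that the authors deposited. In progenitor-like nuclei the 10 granulosa markers summed to 1934 to 2746 CPM and the 6 common progenitor markers to 2120 to 3410 CPM. The granulosa markers summed to 5661 to 6878 CPM in cumulus-like nuclei and to 1366 to 2062 CPM in smooth muscle-like nuclei. The cumulus-like class consisted of granulosa subclusters 5 and 7, in each of which 1 of the 5 listed cumulus markers stood more than 1 log2 unit above the other granulosa nuclei. Subcluster 5 came mostly from Du'an 2 (2093 of 2377 nuclei) and subcluster 7 mostly from Nubian 1 (2036 of 2140). A further subcluster led by the division genes TOP2A and KIF11 was kept apart as cycling-led granulosa, with 977, 637, 189 and 1322 nuclei. The cumulus markers summed to 1041 to 1514 CPM in cumulus-like and to 1224 to 1484 CPM in cycling-led nuclei, so they did not separate these classes.

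ANGPT1, the activating ligand, was highest in pericyte-like nuclei. Its level there was 274, 209, 162 and 126 CPM, a mean of 193 ± 63.9 (SD, n = 4) from 136 UMIs. Every goat lay above its own steroid-producing theca-like nuclei, the second class, where the level was 47.5, 50.1, 121 and 122 CPM (85.0 ± 41.8, SD, n = 4). The 2 Du'an goats were low and the 2 Nubian goats high in the theca-like nuclei, the opposite order to that in the pericyte-like nuclei. The theca-like level of Du'an 1 rests on 4 UMIs. Fibroblast-like nuclei could be read in 2 goats and gave 26.6 CPM in Du'an 2 and 100 CPM in Nubian 1.

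Stromal and fibroblast markers were carried by both the pericyte-like and the smooth muscle-like nuclei. Smooth muscle-like nuclei, a class of 8332 nuclei, had far less ANGPT1 than the pericyte-like nuclei. Their level was 10.3, 36.8, 24.9 and 22.2 CPM (23.6 ± 10.9, SD, n = 4). They exceeded the common progenitor granulosa-like nuclei (16.9 ± 5.95 CPM) in 3 of 4 goats, a difference within the spread over goats. Progenitor-like nuclei nevertheless held 31.1% and smooth muscle-like nuclei 15.9% of the 1684 ANGPT1 UMIs, against 8.08% in pericyte-like nuclei. In that order the classes had 7792, 8332 and 316 nuclei at median depths of 3508, 1010 and 1518 UMIs. The split thus reflects numbers and depth of nuclei as well as level. ANGPT1 was scarce in blood endothelial-like nuclei, with 14 UMIs in all and 0.516 to 6.83 CPM, and in cumulus-like nuclei, with 1.38 ± 1.26 CPM. T or natural killer-like nuclei, used here as a low reference, had 2.00 to 4.01 CPM. The source of their UMIs was not tested, and the cumulus-like mean lay below them.

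ANGPT2, the context-dependent ligand, had its highest class means in lymphatic endothelial-like and cumulus granulosa-like nuclei. In lymphatic endothelial-like nuclei the level was 141, 405, 407 and 318 CPM (318 ± 125, SD, n = 4). In cumulus-like nuclei it was 228, 507, 144 and 381 CPM (315 ± 161, SD, n = 4). The lymphatic class was above the cumulus-like class in 1 of 4 goats, so these neighbours did not differ beyond their spread. Cycling-led granulosa followed with 174, 263, 116 and 366 CPM and lay below the cumulus-like nuclei in 4 of 4 goats.

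A middle group had wide spreads. Steroid-producing theca-like nuclei reached 138 ± 64.6 CPM, pericyte-like nuclei 127 ± 101 CPM and progenitor granulosa-like nuclei 110 ± 71.8 CPM (SD, n = 4 each), and their order held in 2 of 4 goats for each neighbouring pair. Blood endothelial-like nuclei came lower, at 86.6, 92.3, 34.8 and 61.9 CPM (68.9 ± 26.3, SD, n = 4). That place in the order depends on how the class was drawn, since nuclei chosen by a marker gate instead of clusters had 135 CPM, a level like that of the middle group. Within each goat ANGPT2 was higher in the lymphatic than in the blood endothelial-like nuclei, and Nubian 1 had both the lowest blood and the highest lymphatic level. Mural granulosa-like nuclei, the class with aromatase and the LH receptor, had 54.9, 22.5 and 13.7 CPM in the 3 goats where it could be read, about the level in T or natural killer-like nuclei (23.7 ± 11.7 CPM).

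Nuclei of the granulosa classes held most ANGPT2 transcripts. Of 24827 UMIs, 34.2% lay in cumulus-like, 23.1% in progenitor-like and 18.8% in cycling-led granulosa nuclei, against 6.78% in lymphatic and 1.55% in blood endothelial-like nuclei. In the same order these classes were 10.1, 17.4, 6.99, 3.47 and 4.09% of the kept nuclei. Their median depths were 4234, 3508, 4476, 1981 and 1923 UMIs. The split thus reflects numbers and depth of nuclei as well as level. The pooled shares of nuclei that the authors deposited for granulosa subtypes list ANGPT2 alone of the 4 genes. In the authors' table it was seen in 45.0% of cumulus granulosa nuclei and 16.3% of the other granulosa nuclei, and their stage table places it in 52.5% of the Primary stage against 18.9% elsewhere.

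**Figure D1:**
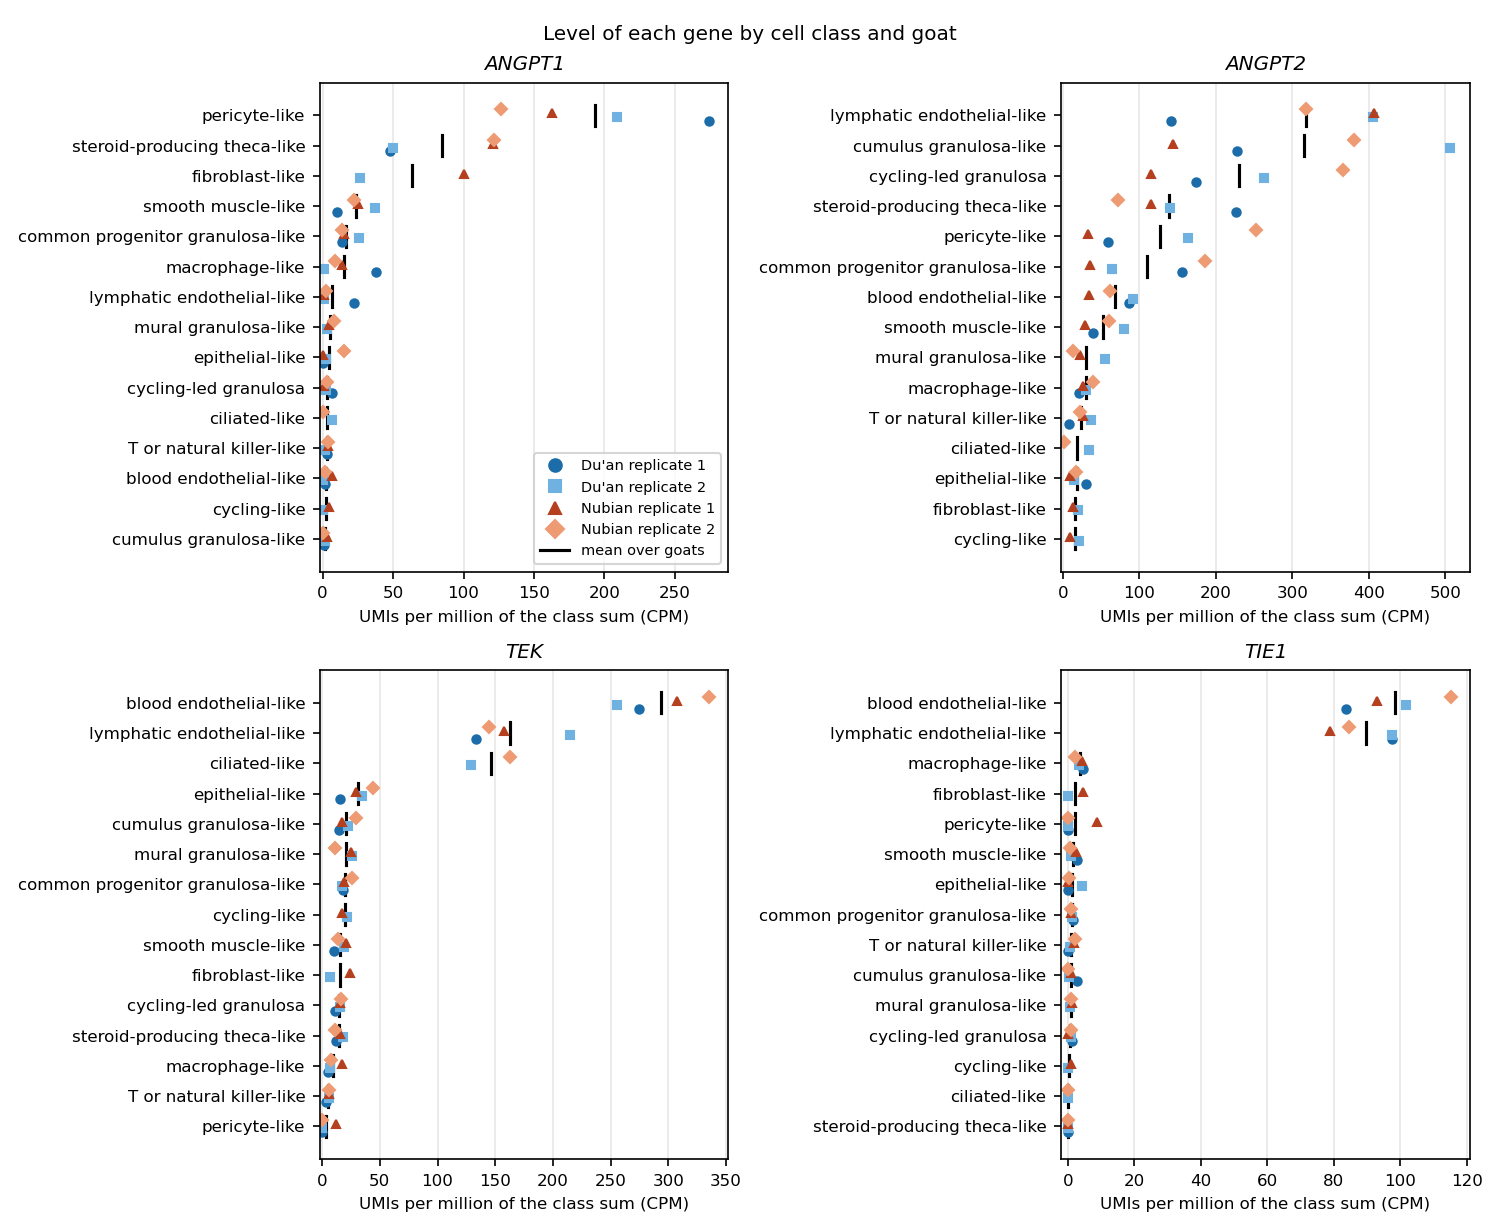
Level of ANGPT1, ANGPT2, TEK and TIE1 in each cell class, as CPM on a linear axis that differs between panels. Points are goats and black bars the means over goats. ANGPT1 peaks in pericyte-like nuclei (126 to 274 CPM), ANGPT2 spreads over lymphatic and granulosa classes, TEK is highest in blood endothelial-like nuclei (256 to 335 CPM), and TIE1 stands out in the 2 endothelial classes alone.

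ANGPT2 was uneven among granulosa subclusters. In cumulus-like subcluster 5 it reached 274, 508, 470 and 460 CPM, while in cumulus-like subcluster 7 it was 95.5 CPM in Du'an 1, 139 CPM in Nubian 1 and 111 CPM in Nubian 2. In the 3 goats with both, subcluster 5 was higher each time. The low cumulus-like level of Nubian 1 therefore came with a class made up mostly of subcluster 7.

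The progenitor-like nuclei split in the same way. Subcluster 6, mostly from Du'an 1 (1941 of 2151 nuclei), had 247, 196, 121 and 273 CPM, and subcluster 3, mostly from Nubian 2 (2628 of 3024), had 107, 114, 99.3 and 235 CPM. Subcluster 4, to which all 4 goats contributed (1154, 196, 533 and 636 nuclei), stayed at 31.7, 45.9, 35.4 and 29.5 CPM. Subcluster 4 was below subclusters 3 and 6 in each goat. The small progenitor-like subcluster 11, with 98 nuclei from Nubian 1 alone, was lower still at 7.80 CPM, from 3 UMIs. The mural subclusters 1, 8 and 10 had pooled levels of 22.5, 55.3 and 14.7 CPM, and the cycling subcluster 9 had 21.9 CPM in Du'an 2 and 9.44 CPM in Nubian 1.

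**Figure D2:**
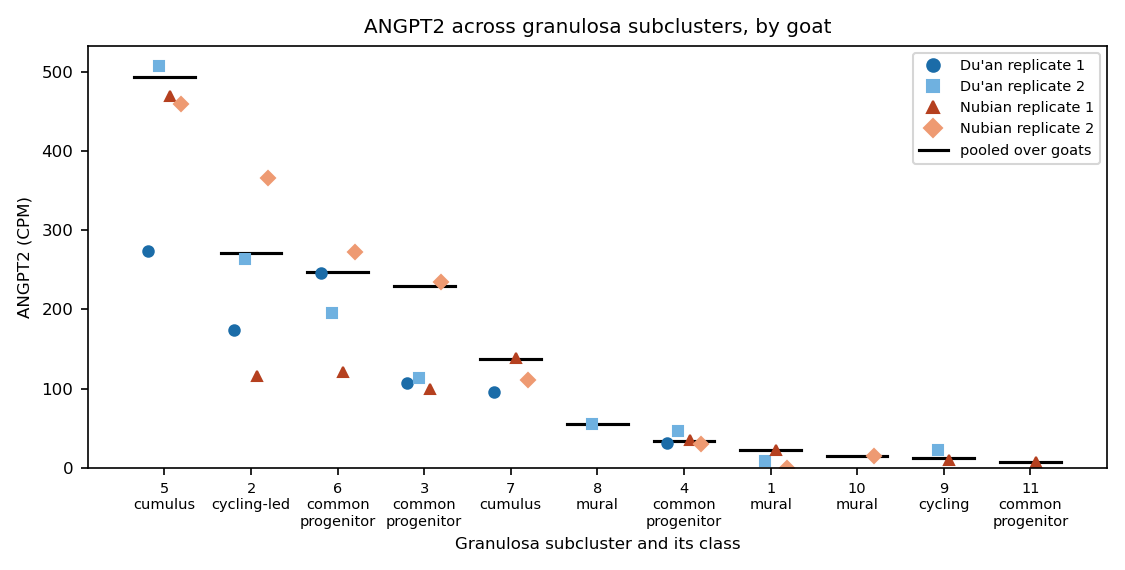
ANGPT2 in CPM across the 11 granulosa subclusters, ordered by pooled level. Points are goats with at least 20 nuclei in the subcluster and bars the level pooled over goats. Cumulus-like subcluster 5 is highest (274 to 508 CPM), and progenitor-like subcluster 4 is low in 4 of 4 goats (29.5 to 45.9 CPM).

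TEK, the angiopoietin receptor, was highest in blood endothelial-like nuclei. Its level there was 274, 256, 307 and 335 CPM (293 ± 35.2, SD, n = 4), and in lymphatic endothelial-like nuclei it was 133, 215, 157 and 144 CPM (162 ± 36.4, SD, n = 4). The ranges of these classes did not overlap, blood exceeded lymphatic in 4 of 4 goats, and the ratio of the means was 1.81. Blood endothelial-like nuclei not named arterial-like had 190, 161, 187 and 173 CPM of TEK. Those levels overlapped the lymphatic range and were above the lymphatic level of each goat except Du'an 2. The blood endothelial-like nuclei were 1827 of the kept nuclei and held 27.7% of the 5542 TEK UMIs, and the lymphatic class held 14.4%.

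Ciliated-like nuclei were next, at 129 CPM in Du'an 2 and 163 CPM in Nubian 2, from 112 UMIs in the 2 goats. Their ciliary dynein gene DNAH5 stood at 2414 and 2865 CPM against at most 3.09 CPM in blood endothelial-like nuclei, so the class carried its marker. The gene beside TEK in the annotation is IFT74, a ciliary transport gene, which had 410 and 466 CPM in ciliated-like nuclei and 101 to 130 CPM in blood endothelial-like nuclei. It had 180 to 267 CPM in smooth muscle-like nuclei, where TEK was 10.6 to 20.5 CPM. In macrophage-like nuclei IFT74 was 43.4 to 57.2 CPM and TEK 4.70 to 17.3 CPM. A long noncoding gene, LOC106502388, overlaps the start of TEK and had 3.16 and 11.5 CPM in ciliated-like nuclei and at most 1.44 CPM in blood endothelial-like nuclei. TEK counts are uncertain where reads of these neighbours could be shared, and that was not tested.

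Below these classes TEK dropped to 30.7 ± 11.9 CPM in epithelial-like nuclei. The means of the granulosa classes ranged from 14.7 CPM in cycling-led to 20.8 CPM in cumulus-like nuclei. In progenitor-like nuclei TEK was 18.2, 16.8, 18.9 and 26.1 CPM. Cycling-led nuclei had 11.4, 15.6, 15.4 and 16.3 CPM, below the progenitor-like nuclei without overlap and below the cumulus-like nuclei (14.6, 22.0, 17.5 and 29.1 CPM) within each goat. Cumulus-like and progenitor-like ranges overlapped. Progenitor-like nuclei lay above the T or natural killer-like nuclei (5.20 ± 1.52 CPM) in 4 of 4 goats. Pericyte-like nuclei held 4 TEK UMIs, all from Nubian 1.

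TIE1, the companion receptor, was confined among the classes read here to endothelium at any appreciable level. It had 83.6, 102, 92.9 and 115 CPM in blood endothelial-like nuclei (98.3 ± 13.4, SD, n = 4) and 97.4, 97.6, 78.9 and 84.6 CPM in lymphatic endothelial-like nuclei (89.6 ± 9.37, SD, n = 4). Blood was higher in 3 of 4 goats and the ranges overlapped, unlike for TEK. Blood endothelial-like nuclei not named arterial-like had 78.6, 90.8, 70.6 and 88.5 CPM of TIE1. These were below the lymphatic level of each goat except Nubian 2. Macrophage-like nuclei came next with 3.63 ± 1.13 CPM, a drop of 24.7-fold, and every other class had a mean of at most 2.25 CPM. Blood and lymphatic endothelial-like nuclei held 45.7% and 36.4% of the 1141 TIE1 UMIs. No TIE1 UMI was seen in theca-like or ciliated-like nuclei, which allows a level of up to 3.27 and 3.99 CPM.

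Within the blood endothelial-like nuclei, TEK was higher in those named arterial-like. Arterial-like nuclei (479, subclusters 2 and 5, with GJA5 or HEY1 among the leading genes) had 394, 392, 468 and 432 CPM of TEK, and the other 1348 nuclei had 190, 161, 187 and 173 CPM. TIE1 was also higher in the arterial-like nuclei of each goat, at 90.6, 117, 122 and 131 CPM against 78.6, 90.8, 70.6 and 88.5 CPM. In subcluster 2 alone, with 381 of these arterial-like nuclei, TIE1 was 90.2, 87.8, 116 and 71.2 CPM. That lay below the other nuclei in Du'an 2 and Nubian 2. Subcluster 5, with 98 nuclei, had a pooled TIE1 level of 174 CPM. ANGPT2 went the other way in 3 of 4 goats, with 35.1, 56.7, 36.6 and 41.4 CPM in arterial-like and 123, 117, 33.5 and 96.2 CPM in the other nuclei. Nubian 1 was the exception for ANGPT2, with similarly low levels in both. The pooled ANGPT2 level was 25.6 CPM in subcluster 2 and 98.0 CPM in subcluster 5, against 93.5 CPM in the other nuclei. Pooled TEK was 464 and 287 CPM in subclusters 2 and 5, against 177 CPM in the other nuclei. Only 2 goats had at least 20 nuclei in subcluster 5. Depth moved with the split into arterial-like and other nuclei. The median UMI count of subclusters 2 and 5 was 1.96 and 2.62 times that of all kept nuclei of the same goat, against 0.772, 0.704 and 0.713 times in subclusters 1, 3 and 4, and its part in the levels was not tested. The unnamed subcluster 6 was the deepest at 2.99 times and had the lowest pooled TEK level of the 7, at 81.6 CPM. It had the mural granulosa marker LHCGR among its leading genes, and whether it holds doublets was not tested.

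The 3 largest of the other blood endothelial-like subclusters each came mostly from 1 goat, so those states cannot be told apart from a library. Subcluster 1, called sprouting tip-like from 4 of 9 markers, had 398 of 476 nuclei from Nubian 1, subcluster 4, called capillary-like, 339 of 366 from Du'an 2, and the unnamed subcluster 3 had 303 of 375 from Du'an 1. ANGPT2, which endothelial tip cells are known to make, was at 131, 108, 36.9 and 91.2 CPM in the sprouting tip-like nuclei. These levels rest on 13, 8, 24 and 4 UMIs, and Nubian 2 had only 18 such nuclei. In the capillary-like nuclei of Du'an 2 it was at 99.6 CPM. Subclusters 6 (12, 34, 23 and 4 nuclei) and 7 (17, 26, 4 and 11 nuclei) drew on all 4 goats and stayed unnamed, subcluster 6 with the mural granulosa marker LHCGR among its leading genes. Their pooled ANGPT2 levels were 125 and 107 CPM, and that of TEK in subcluster 7 was 266 CPM, from 55 UMIs.

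**Figure D3:**
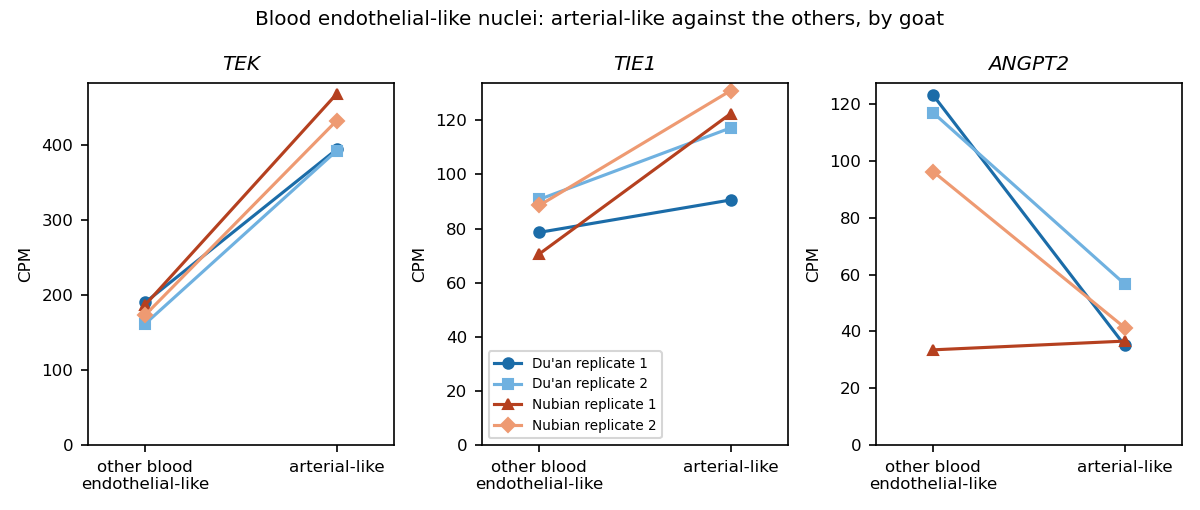
TEK, TIE1 and ANGPT2 in CPM in arterial-like and other blood endothelial-like nuclei, with 1 line per goat and axes from 0. TEK and TIE1 rise toward the arterial-like nuclei in 4 of 4 goats, and ANGPT2 falls in 3 of 4, with Nubian 1 level at 33.5 and 36.6 CPM.

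Shares of nuclei with a UMI were compared after each nucleus was thinned to 1000 UMIs, which left out shallower nuclei (394 of the blood and 314 of the lymphatic endothelial-like). TEK was seen in 20.9, 17.0, 22.0 and 22.0% of blood and 9.91, 15.8, 11.6 and 7.53% of lymphatic endothelial-like nuclei. The mean was 20.5% against 11.2%, and 0.819% in T or natural killer-like nuclei (median depths 1923, 1981 and 2234 UMIs). Without thinning the shares were 37.3, 23.7 and 1.43%.

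TIE1 was seen in 7.40% of blood and 8.46% of lymphatic endothelial-like nuclei on average, against 0.0170% of T or natural killer-like nuclei. The unthinned shares were 22.1, 20.1 and 0.308%. ANGPT2 reached 10.3, 23.3, 20.6 and 22.6% of lymphatic endothelial-like nuclei and 5.67, 8.70, 2.80 and 8.51% of blood endothelial-like nuclei, with 2.08% in T or natural killer-like nuclei (30.4, 12.5 and 4.96% unthinned). In cumulus-like nuclei it was 14.9, 31.6, 11.6 and 28.4%, and 41.6% on average without thinning. Lymphatic shares thus stood above blood shares in 4 of 4 goats, though for Du'an 1 the exact binomial 95% intervals of 6.74 to 15.0% and 3.45 to 8.72% overlapped.

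ANGPT1 was seen in 17.7, 26.5 and 13.8% of the pericyte-like nuclei of Du'an 1, Du'an 2 and Nubian 1, against 0.702% of T or natural killer-like nuclei (23.0 and 0.777% unthinned, at median depths of 1518 and 2234 UMIs). Nubian 2 had fewer than 20 pericyte-like nuclei deep enough. For Du'an 2 the 95% interval ran from 12.9 to 44.4%. Intervals cover counting error only.

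**Figure D4:**
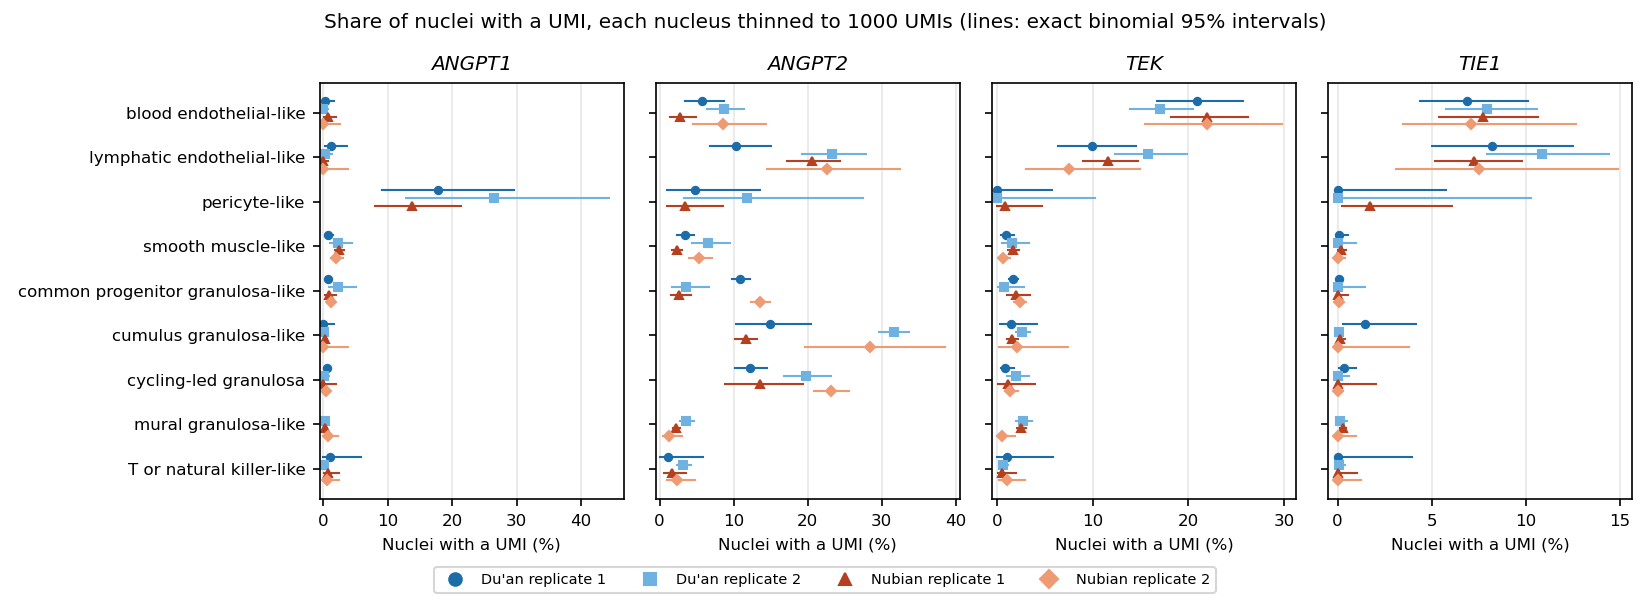
Share of nuclei with a UMI of each gene after thinning to 1000 UMIs, in percent, by class and goat. Lines are 95% intervals from the exact binomial method and reflect counting error alone. TEK lies at 17.0 to 22.0% in blood endothelial-like nuclei, and TIE1 is above 5% in the endothelial classes alone among those drawn.

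Likeness to other genes was measured as Pearson's r of log2(CPM + 1) over 53 class sums of 15 classes, among 15050 genes. The sums of 1 goat share a library and its depth, so these values are a description. TIE1 had the closest neighbours, with ECSCR (r = 0.95), an endothelial surface protein, SEMA6B (0.93) and PROCR (0.92), the endothelial protein C receptor. TEK was most like F11R (0.83), a junctional adhesion molecule, HID1 (0.82) and DLL4 (0.82), the arterial NOTCH ligand. F11R and HID1 were also high in ciliated-like nuclei, at 99.3 and 74.5 CPM, as TEK was.

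ANGPT1 was most like FBN2 (0.79), a microfibril protein at 238 CPM in pericyte-like nuclei, DACT3 (0.78) and PHF21B (0.76). ANGPT2 was most like SUSD4 (0.73), a complement inhibitor, MYZAP (0.72) and PDE7B (0.71), a cyclic AMP phosphodiesterase at 4756 CPM in cumulus-like and 3224 CPM in lymphatic endothelial-like nuclei. Between the members, r was 0.69 for TEK and TIE1, 0.04 for ANGPT1 and ANGPT2, and -0.50 for ANGPT1 and TEK. For TEK and TIE1 the value depended on the measure, at 0.35 by Spearman's rho and 0.82 on log2(CPM + 10).

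The wider pathway was read from fixed lists, each described by the genes with the highest and lowest level in blood endothelial-like nuclei relative to the median of the other classes. Among 5 relatives, PTPRB, the phosphatase that restrains TEK, was at the top with 1237 CPM in blood and 531 CPM in lymphatic endothelial-like nuclei against a median of 14.6 CPM. ANGPT4, another TEK ligand, was at the bottom with 4.44 CPM and had its highest level in smooth muscle-like nuclei, at 54.1 CPM. Of 16 adaptors and relays, SHC1 was highest (52.8 against 13.7 CPM) and the kinase PAK1 lowest (31.8 against 84.2 CPM), with PAK1 at 465 CPM in cumulus-like nuclei.

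Among junction partners and transcription factors PECAM1 and ERG were at the top. PECAM1 had 643 CPM against a median of 8.46 CPM, and the ETS factor ERG 749 against 10.8 CPM, and both are also markers that named the class. The lowest of those lists were the integrin ITGAV (182 against 272 CPM) and the ETS factor ELF1 (212 against 191 CPM). Of the 8 angiopoietin-like genes none was highest in blood endothelial-like nuclei, and ANGPTL4 and ANGPTL2 marked the ends with 1.96 and 2.65 CPM. In the VEGF family the receptor KDR, also a class marker, stood at 467 against 8.58 CPM, and the ligand VEGFA at 16.5 CPM, with its highest level of 121 CPM in cycling-led granulosa.

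The breeds were compared within each class on UMI sums per goat with edgeR's quasi-likelihood test, 2 goats against 2, with Benjamini-Hochberg adjustment over all genes fitted. None of the 4 genes was called between Nubian and Du'an goats in any of 11 classes, and no gene of the pathway lists was. In blood endothelial-like nuclei edgeR called 0 of 9757 genes (0%), with 218 at an unadjusted p under 0.05, and DESeq2 also called 0. Over the 11 classes edgeR called 0 genes throughout (0%), with 61 to 1151 genes at an unadjusted p under 0.05, and DESeq2 called between 0 and 265 genes. The largest of these counts, 1151 and 265, were both in T or natural killer-like nuclei.

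ANGPT2 in blood endothelial-like nuclei was 86.6 and 92.3 CPM in the Du'an and 34.8 and 61.9 CPM in the Nubian goats. The breeds did not overlap, and the log2 fold change, Nubian minus Du'an, was -0.91 ± 0.36 (SE), with an edgeR p of 0.0447 and an adjusted p of 0.999. Under classes drawn by a marker gate instead of clusters the value turned to 0.43 (adjusted p 0.47 to 1.00 over 12 alternatives). TEK was 274 and 256 CPM against 307 and 335 CPM, with a log2 fold change of 0.28 ± 0.23, and TIE1 changed by 0.16 ± 0.27 with overlapping breeds. In arterial-like nuclei alone TEK was 394 and 392 against 468 and 432 CPM, without overlap. In the other nuclei it was 190 and 161 against 187 and 173 CPM, with overlap. Arterial-like nuclei were 111 of 484, 159 of 584, 133 of 577 and 76 of 182 nuclei of the class, and the part of this mix in the TEK value was not tested. Of the 3 members fitted, 2 did not overlap between breeds, beside 28.1% of all genes fitted in this class. Mural granulosa markers, of which LHCGR and CYP19A1 are the best known, summed to 136, 1190, 2005 and 160 CPM in these nuclei, and their part in the values was not tested.

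In lymphatic endothelial-like nuclei the log2 fold changes were 0.41 ± 0.47 for ANGPT2, -0.21 ± 0.29 for TEK and -0.26 ± 0.25 for TIE1. TIE1 alone did not overlap (97.4 and 97.6 against 78.9 and 84.6 CPM), 1 of 3 members beside 31.9% of all genes. The ANGPT2 value rested on Du'an 1, the low goat, and was -0.16 without it. Mural granulosa markers summed to 88.2, 811, 1907 and 385 CPM here, and their part was not tested.

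In pericyte-like nuclei ANGPT1 was 274 and 209 CPM in Du'an and 162 and 126 CPM in Nubian goats, without overlap. The log2 fold change was -0.70 ± 0.36, with an edgeR p of 0.0863 and an adjusted p of 0.868. ANGPT2 changed by 0.19 ± 0.90 there with overlapping goats. Of the 2 members fitted, 1 did not overlap, beside 35.3% of all genes, and the Nubian values rest on 140 and 35 nuclei. Mural granulosa markers summed to 149, 1498, 2727 and 295 CPM in these nuclei, and their part was not tested.

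In theca-like nuclei ANGPT1 and ANGPT2 had opposite signs. ANGPT1 had a log2 fold change of 1.24 ± 0.44 (edgeR p 0.0213, adjusted p 1.00), from 47.5 and 50.1 CPM to 121 and 122 CPM. ANGPT2 was at 226 and 140 CPM in Du'an and 115 and 72.3 CPM in Nubian goats, a log2 fold change of -0.92 ± 0.44 (edgeR p 0.0689, adjusted p 1.00). Over 11 alternatives ANGPT1 ran from 1.16 to 1.90, and ANGPT2 from -1.29 to -0.11, the latter without the nuclei of highest doublet score. Both of the 2 members fitted did not overlap, beside 26.7% of all genes, and the sums held 78 ANGPT1 and 113 ANGPT2 UMIs. By goat the ANGPT1 levels rest on 4, 19, 23 and 32 UMIs from 37, 85, 70 and 124 nuclei.

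In smooth muscle-like nuclei the goats of the breeds overlapped for each of the 3 members fitted, beside 30.5% of all genes that did not. The log2 fold change was 0.17 ± 0.56 for ANGPT1, -0.35 ± 0.44 for ANGPT2 and 0.35 ± 0.41 for TEK. ANGPT1 turned to -0.60 without Du'an 1, and TEK to -0.10 without Nubian 1 and -0.082 without Du'an 1. Mural granulosa markers summed to 243, 1636, 3068 and 527 CPM in these nuclei, the same order of goats as for TEK (10.6, 18.8, 20.5 and 13.4 CPM), and their part was not tested.

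Among granulosa classes the spread within a breed exceeded the difference between breeds for ANGPT2. Its log2 fold change was -0.05 ± 0.82 in progenitor-like, -0.58 ± 0.50 in cumulus-like and 0.14 ± 0.51 in cycling-led nuclei, and it overlapped in each. Subclusters 5 and 7 hold most of the cumulus-like nuclei of different goats, as given above, so that value compares those subclusters as well. In progenitor-like nuclei TEK and TIE1 did not overlap, 2 of 4 members beside 22.9% of all genes, with log2 fold changes of 0.31 ± 0.31 and -0.66 ± 0.72. For TEK the nearest goats, Du'an 1 and Nubian 1, had 18.2 and 18.9 CPM. For TIE1 they were Du'an 2 and Nubian 1, at 1.12 and 1.01 CPM from 2 and 3 UMIs. Those TIE1 levels were near the T or natural killer-like mean of 1.06 CPM. In cumulus-like and cycling-led nuclei 0 of the 2 and 0 of the 3 members fitted were without overlap, beside 29% and 29.2% of all genes. Mural granulosa-like nuclei were too few in Du'an 1 for a comparison. In the remaining classes, 0 of 2 members fitted were without overlap in macrophage-like nuclei (33.8% of all genes). It was 0 of 1 in T or natural killer-like nuclei (47.1%), and no member passed the count filter in epithelial-like nuclei (25.9%).

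**Figure D5:**
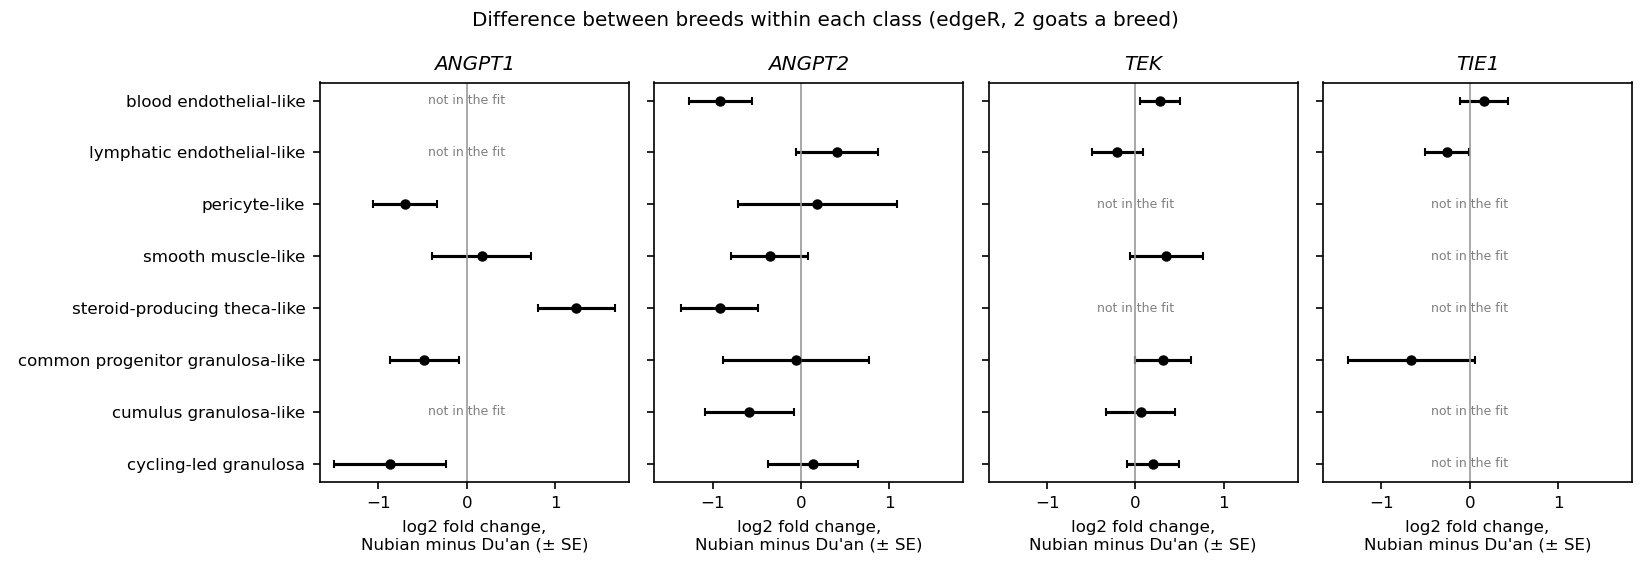
Log2 fold change of each gene between breeds, Nubian minus Du'an, by class, from edgeR on sums per goat (2 goats a breed). Points are estimates, bars ± 1 SE, and "not in the fit" marks genes that failed the filter on low counts. ANGPT2 in blood endothelial-like nuclei lies at -0.91 and ANGPT1 in theca-like nuclei at 1.24, and none passed the adjusted threshold.

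Whether the breed difference itself varied between vessel types was tested as an interaction of breed and class in blood and lymphatic endothelial-like nuclei, with goat as a block. edgeR called 0 of 10668 genes (0%). For ANGPT2 the breed difference in blood minus that in lymphatic nuclei was -1.52 ± 0.54 on the log2 scale (edgeR p 0.0196, adjusted p 1.00). It was -2.32 without Du'an 2, a fit that leaves Du'an 1 as the lone Du'an goat. The lymphatic ANGPT2 level of Du'an 1, 141 CPM, was the lowest over goats. Without a filter on low counts the ANGPT2 difference passed the threshold, at -1.55 (adjusted p 0.0149), a setting that also called other genes, as given below. Under the marker gate it was -0.48. TEK gave 0.46 ± 0.34 and TIE1 0.40 ± 0.30, and TEK fell to -0.0027 without Du'an 2. ANGPT1 was too low in both classes to be fitted.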

How the data were processed

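Left ovaries of 4 goats were profiled by 10x Genomics 3′ single-nucleus RNA sequencing. The authors deposited count matrices of UMIs per gene and nucleus. The submitters' processing notes name Cell Ranger 5.0.0 and Seurat, while the matrix headers give software version 3.1.0. Of 2 deposited granulosa tables, the fraction of nuclei with each gene, pooled by the authors, was used, and subtype membership named the granulosa subclusters after the 4 genes, the markers and the pathway genes were taken out. Fold changes and p-values in those tables were not used.

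Following the study's stated filters, nuclei beyond 2 SD of the mean UMI or gene count or above 20% mitochondrial UMIs were removed, as were the 0.389% of nuclei that Scrublet called, 187 in Du'an 2, 1 in Nubian 2 and 0 in the other goats, too few for the caller to have worked. Doublets therefore remain. Clusters came from scanpy 1.11.5 and leidenalg 0.10.2 (2000 variable genes, 30 components, 20 neighbours, resolution 0.8). A cluster was named by markers fixed in lists. The thresholds for naming were chosen once the clusters had been looked at, and a cluster with at least 2 markers of another list among its 10 leading genes, and more than of its own, lost its name. 3893 nuclei stayed unnamed.

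UMIs were summed per class and goat. Breeds were compared with edgeR 4.0.16 in R 4.3.3 (TMM, filterByExpr, quasi-likelihood, adjusted p under 0.05), in place of the study's t-test over nuclei, and DESeq2 1.42.0 was an alternative. On simulated counts for blood endothelial-like sums of 9757 genes, 51.5% of genes changed 4-fold and 96.5% of those changed 16-fold were recovered. For progenitor-like sums of 13229 genes the shares were 0% and 94%. The simulation gave every gene of a class the same dispersion, so these shares need not hold for genes that vary more between goats. P-values set a breed difference against the spread between goats of a breed, estimated with information shared across genes. In the interaction the goat block takes out differences between goats that both classes share.

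The members, lists and tests were chosen with earlier results of these data known. Named genes are the 4 members, the 3 genes most like each, and from each pathway list the genes with the highest and the lowest ratio of blood endothelial-like to median level. No sequence is given.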

Additional observations from a re-analysis of the deposited data

Results flagged for a closer look

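In each class read in 4 goats, the goats of both breeds were taken as 1 group, and a value was marked where the highest or lowest goat stood apart from the others by Dixon's ratio. Of 39 groups of 4 goats with at least 10 UMIs of the gene, 5 were marked. The cutoff marks about 1 in 20 groups where values are normal and groups independent. Low counts, and groups that share the same 4 goats, need not follow that rate. ANGPT1 in blood endothelial-like nuclei was 6.83 CPM in Nubian 1 (10 UMIs), and 0.516 to 1.53 CPM in the others. ANGPT1 in progenitor granulosa-like nuclei was 25.7 CPM in Du'an 2 (46 UMIs), and 13.4 to 14.8 CPM in the others. ANGPT1 in epithelial-like nuclei was 15.2 CPM in Nubian 2 (33 UMIs), and 0 to 2.16 CPM in the others. ANGPT1 in lymphatic endothelial-like nuclei was 22.4 CPM in Du'an 1 (17 UMIs), and 0.734 to 2.49 CPM in the others. TEK in T or natural killer-like nuclei was 2.94 CPM in Du'an 1, from 1 UMI, and 5.75 to 6.12 CPM in the others.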

How the results depend on the processing

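Of 282 alternative values of the breed difference for a member in a class, 246 kept their sign and their side of the threshold and 36 reversed, and none passed it. With a goat left out, the log2 fold change of ANGPT1 ran from -1.81 to 2.99 in macrophage-like and from -0.60 to 1.24 in smooth muscle-like nuclei. That of ANGPT2 ran from -0.61 to 1.503 in T or natural killer-like, -1.74 to 0.74 in progenitor-like, -1.47 to 0.16 in cumulus-like, -1.01 to 0.72 in cycling-led, -0.16 to 1.39 in lymphatic endothelial-like, -0.12 to 0.61 in macrophage-like, -1.65 to 1.24 in pericyte-like and -0.89 to 0.19 in smooth muscle-like nuclei. That of TEK ran from -0.24 to 0.58 in cumulus-like, -0.031 to 0.47 in cycling-led, -0.51 to 0.20 in lymphatic endothelial-like and -0.10 to 0.74 in smooth muscle-like nuclei, and that of TIE1 from -0.034 to 0.33 in blood endothelial-like nuclei. Other reversals were ANGPT1 in smooth muscle-like nuclei at clustering resolution 1.2 (-0.12) and with the marker gate (-0.66), ANGPT2 with the gate in blood endothelial-like nuclei (0.43), ANGPT2 in progenitor-like nuclei at resolutions 0.4 (0.022) and 1.2 (0.0091), ANGPT2 in pericyte-like nuclei without the nuclei of highest doublet score (-0.89), TEK in progenitor-like nuclei with the gate (-0.017) and TEK in cumulus-like nuclei at resolution 0.4 (-0.11). The cause was not tested.

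No number in the titles is stated to pair goats across breeds, and deviations of same-numbered goats correlated between -0.29 and 0.21. With the replicate block, ANGPT1 reversed in macrophage-like nuclei (0.24), and ANGPT2 in T or natural killer-like (0.14), cycling-led (-0.079) and pericyte-like nuclei (-0.00070). The block moved the genes called from 0 to 187 in T or natural killer-like, 1 in cumulus-like and 1 in epithelial-like nuclei. With crossed numbers, added after seeing the data, 6 genes were called in theca-like nuclei.

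Without a filter on low counts, edgeR called 82 genes for blood endothelial-like, 131 for lymphatic endothelial-like, 26 for pericyte-like, 197 for smooth muscle-like, 6 for theca-like, 169 for progenitor-like, 137 for cumulus-like, 148 for cycling-led, 5 for epithelial-like, 183 for macrophage-like and 594 for T or natural killer-like nuclei. DESeq2 called 265 in T or natural killer-like, 3 in progenitor-like, 11 in cumulus-like, 19 in cycling-led, 1 in epithelial-like, 3 in lymphatic endothelial-like, 14 in macrophage-like and 7 in smooth muscle-like nuclei. With a goat left out the counts reached, from 0 at the lowest, 157 for blood endothelial-like and 670 for T or natural killer-like nuclei without Nubian 1. They ran from 0 to 92 for cumulus-like, 10 for cycling-led and 16 for epithelial-like nuclei without Du'an 1, to 43 for pericyte-like and 3 for smooth muscle-like nuclei without Du'an 2, and to 44 for lymphatic endothelial-like and 10 for theca-like nuclei without Nubian 2. The lone goat left in a breed is then assumed to vary like the others. The marker gate gave no value for pericyte-like, theca-like, cumulus-like and epithelial-like nuclei, nor resolution 0.4 for theca-like nuclei, and neither had cycling-led nuclei.

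The ANGPT2 interaction was -1.55 without the filter and -2.32 to -0.85 with a goat left out, and TEK ran from -0.0027 to 0.84. Genes called by interaction went from 0 to 47 without the filter and 0 to 40 with a goat left out (without Du'an 2). Shares depended on depth. Thinning to 500 UMIs gave 7.40% for ANGPT1 in pericyte-like, 11.2% for ANGPT2 in lymphatic, 10.7% for TEK and 4.40% for TIE1 in blood endothelial-like nuclei, and no thinning gave 30.4, 37.3 and 22.1% for ANGPT2, TEK and TIE1. Of the 3 genes most like each member, log2(CPM + 10) kept 1 for ANGPT1, 1 for TEK and 1 for TIE1, and Spearman's rho kept 1 for ANGPT1, 1 for ANGPT2 and 0 for TIE1. Of 296 alternative class levels, 291 moved by less than the SD over goats, and ANGPT2 in blood endothelial-like nuclei went from 68.9 to 135 CPM with the marker gate. The 296 include means with a goat left out. Leaving out a goat cannot move these means by as much as the SD, so that part of the count was fixed in advance.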

Other observations

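The receptors were seldom seen in the same thinned nucleus. In blood endothelial-like nuclei with a TIE1 UMI, TEK was also seen in 13.04, 9.52, 30.3 and 20% (23, 42, 33 and 10 nuclei), and in nuclei without one in 21.5, 17.7, 21.3 and 22.1%. The goats lay on both sides, and the counts are too small for an order.

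In lymphatic endothelial-like nuclei with a TEK UMI, ANGPT2 was also seen in 8.70, 11.5, 16.4 and 28.6% (23, 61, 61 and 7 nuclei), and in those without one in 10.5, 25.5, 21.2 and 22.1%. The share was lower beside TEK in 3 of 4 goats. These are counts in sparse data with no test.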
